A study of Mus musculus with 48 samples.

Results

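The AP-1 transcription factor genes described here are Fos, Fosb and Fosl2 of the Fos family and Jun, Junb and Jund of the Jun family. They were chosen by name, with earlier results of these data known. They are 6 of the 37620 genes in the table, and all 6 passed the filter on low values that left 15350 genes for testing. RNA-seq was made from the nucleus accumbens shell of 48 mice, 1 library per mouse; the shell is part of the ventral striatum and belongs to the circuits of reward. The tissue was cut out by laser and the libraries were made from poly(A) RNA. All mice came from the outbred HS-CC stock (heterogeneous stock-collaborative cross) and from selection generation 4 of a breeding experiment on ethanol preference. The mice formed 4 groups: 12 High F and 12 High M mice of the line with high ethanol preference, and 12 Low F and 12 Low M mice of the line with low preference. Each line was 1 selected population, so selection and drift cannot be told apart. The ages, families and ethanol history of the mice are not given in the sources used here.

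AP-1 is a dimer of basic leucine zipper proteins that binds DNA at short palindromic sites. Fos proteins bind only with a partner, usually a Jun protein, whereas Jun proteins can also pair with each other. In neurons Fos, Fosb and Junb are immediate early genes, switched on within minutes to hours of synaptic activity, while Jund is known as a more steadily expressed member. A truncated splice product of Fosb, delta-FosB, is stable and is known to build up in the accumbens after repeated exposure to drugs of abuse.

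The question put to the data was how much of each AP-1 transcript the shell held, whether the lines or genders differed, and which members rose and fell together from mouse to mouse. Levels are the authors' normalised counts, whole numbers that are not raw reads. Library totals ran from 13579559 to 14561911 normalised counts, and 19708 to 20888 genes had a value above 0. Defining markers of striatal medium spiny neurons were high throughout, with the least of the 48 libraries at 19811 normalised counts of Ppp1r1b and 1909 of Drd1. The cortical marker Slc17a7 ran from 2 to 3886 with a median of 15.5. It reached 100 in 10 libraries, 3 High and 7 Low. High M replicate 1 had the lowest median correlation with the other libraries (0.968) and the lowest share of value in last exons, at 46.8%. Calls and directions of the members that change without these libraries are given both ways, here or with the processing alternatives. In bulk tissue, fewer expressing cells and less RNA per cell cannot be told apart.

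Fos (ENSMUSG00000021250), the founding Fos family member, lies on the plus strand of chromosome 12 at 85473890 to 85477273 in GRCm38 (GENCODE M21). Fosb (ENSMUSG00000003545) lies on the minus strand of chromosome 7 at 19302696 to 19310051. Fosl2 (ENSMUSG00000029135), which codes for the Fos-related antigen Fra-2, lies on the plus strand of chromosome 5 at 32135801 to 32157842. The table of exons listed 4 exons for each of these 3 genes. The last exon, which holds the 3′ UTR, carried 81.5% of the summed exon value in Fos, 93.0% in Fosb and 95.6% in Fosl2. The last exon of Fosb is a single listed feature starting at mm9 position 19888070 of chromosome 7, and full-length FosB and delta-FosB transcripts cannot be told apart from it.

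Jun (ENSMUSG00000052684), the gene of c-Jun, lies on the minus strand of chromosome 4 at 95049034 to 95052222. Junb (ENSMUSG00000052837) lies on the minus strand of chromosome 8 at 84974484 to 84978718, and Jund (ENSMUSG00000071076) on the plus strand of chromosome 8 at 70698949 to 70700616. Each Jun family gene had 1 listed exon. The strand setting of the authors' counting is not given in the sources used here, so reads from overlapping genes on opposite strands cannot be told apart. Jund shares sequence with the minus-strand gene Gm11175 (chromosome 8, 70699162 to 70700080), which was listed at 406 to 907 normalised counts. The plus-strand gene Junos overlaps Jun and was listed at 9 to 48. The GENCODE span of Junb overlaps, at its 3′ end, the plus-strand gene Prdx2 (chromosome 8, 84969587 to 84974834). Prdx2 was listed at 4192 to 5975, above Junb itself in every library. The longest coding transcript of Junb has 1809 bases, and whether the counted Junb exon reaches Prdx2 was not tested.

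Per length of transcript, the order of mean levels was Jund, Junb, Fos, Jun, Fosl2 and Fosb. Jund averaged 1059 and Junb 529 normalised counts per kb, at the 93.0 and 84.7 percentile of 13616 genes with a transcript length. Fos averaged 130, Jun 128 and Fosl2 123 normalised counts per kb, near the middle of all genes, and these 3 means lay closer together than the SD between mice of any of the 3 genes. Fosb was lowest at 68.6 normalised counts per kb, at the 36.4 percentile. Without division by length, the means were 1766 for Jund, 956 for Junb, 803 for Fosl2, 408 for Jun, 275 for Fos and 259 for Fosb. The place of Fosl2 therefore depends on the length used.

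The promoters of Fos, Fosb, Junb and Jun are shown because in these 4 members the RefSeq start lies at or close to the GENCODE start given above. The first 3 of these genes rose and fell together among mice, and Jun followed them less closely. Fosl2 also moved with the first 3, but its RefSeq window lies inside the gene as GENCODE has it. That of Jund ends well upstream of the GENCODE start. Neither of these windows is shown here. Each sequence is the 250 bases before the RefSeq start, read 5′ to 3′ on the gene's strand, in GRCm38.p6. Fos is chr12:85473640-85473889 on the plus strand, Fosb chr7:19310046-19310295, Junb chr8:84978749-84978998 and Jun chr4:95052223-95052472, all 3 on the minus strand. Capitals mark TGACG, the core of the cyclic AMP response element bound by CREB and its relatives. In Fos they also mark the TATA box TATAAA, and in Jun the variant AP-1 site TGACATCA.
Fos: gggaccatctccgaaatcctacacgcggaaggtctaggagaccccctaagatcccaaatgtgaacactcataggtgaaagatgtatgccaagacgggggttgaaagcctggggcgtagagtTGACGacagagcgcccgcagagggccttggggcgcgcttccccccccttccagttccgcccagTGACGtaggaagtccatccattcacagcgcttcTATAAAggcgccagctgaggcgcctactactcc
Fosb: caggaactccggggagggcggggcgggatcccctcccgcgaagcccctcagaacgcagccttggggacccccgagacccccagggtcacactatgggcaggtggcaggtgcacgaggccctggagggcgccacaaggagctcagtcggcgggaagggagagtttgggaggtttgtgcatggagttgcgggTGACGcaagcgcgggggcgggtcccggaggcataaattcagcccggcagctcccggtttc
Junb: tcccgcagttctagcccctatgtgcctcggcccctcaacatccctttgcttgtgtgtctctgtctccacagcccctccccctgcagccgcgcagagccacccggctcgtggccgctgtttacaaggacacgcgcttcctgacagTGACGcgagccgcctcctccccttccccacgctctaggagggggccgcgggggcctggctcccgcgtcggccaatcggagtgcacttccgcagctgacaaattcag
Jun: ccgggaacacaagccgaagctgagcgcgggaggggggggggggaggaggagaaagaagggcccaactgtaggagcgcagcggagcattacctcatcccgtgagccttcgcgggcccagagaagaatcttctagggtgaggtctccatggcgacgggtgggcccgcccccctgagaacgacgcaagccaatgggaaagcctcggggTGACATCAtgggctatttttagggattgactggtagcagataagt
RefSeq held an entry for all 6 genes, and every motif below was searched on both strands in the same window of 32851 genes. TGACG matched 2 times in Fos, 129 and 66 bases before the start, and 1 time each in Fosb (60 bases before) and Junb (106 bases before). It had no match in Jun, nor in the windows of Fosl2 and Jund that are not shown, and 17.8% of all windows held it. Fosl2 thus moved with Fos, Fosb and Junb without a match in its RefSeq window. A relation between this motif and the co-variation was not tested. TATAAA stood 33 bases before the Fos start and occurred in 12.4% of windows. CCAAT matched in Jun (65 bases before) and Junb (36 bases before) and in 33.8% of windows. TGACATCA, searched after the sequences had been seen, matched 45 bases before the Jun start and in 2.93% of windows. The full element TGACGTCA, which contains TGACG (1.55% of windows), the AP-1 site TGANTCA (6.75%), the Egr site GCGTGGGCG (0.536%) and the CArG box bound by serum response factor (1.47%) had no match in these 4 windows. A match is a description of the letters and not of a bound site. Sites farther than 250 bases before the start were not searched, so a missing match does not describe the whole promoter.

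From mouse to mouse, Fos varied most and Jund least. Fos ran from 72 to 550 normalised counts over the 48 mice with a median of 273.5, a 7.64-fold range. Fosb ran from 94 to 424 with a median of 257, and Fosl2 from 355 to 1154 with a median of 845.5. Among the Jun genes the ranges were narrower. Junb lay between 577 and 1353 with a median of 929.5, Jun between 251 and 606 with a median of 384.5, and Jund between 1133 and 2132 with a median of 1763. The SD within a group on the log2 scale was 0.67 for Fos, 0.47 for Fosb, 0.43 for Fosl2, 0.32 for Junb, 0.27 for Jun and 0.19 for Jund, beside a median of 0.232 over all tested genes. Set against genes of like level (within 0.5 on the log2 scale), Fos stood at the 98.2 percentile of this SD, Fosl2 at 97.2, Fosb at 94.5 and Junb at 92.9. Jun stood at the 80.8 and Jund at the 63.8 percentile.

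**Figure D1:**
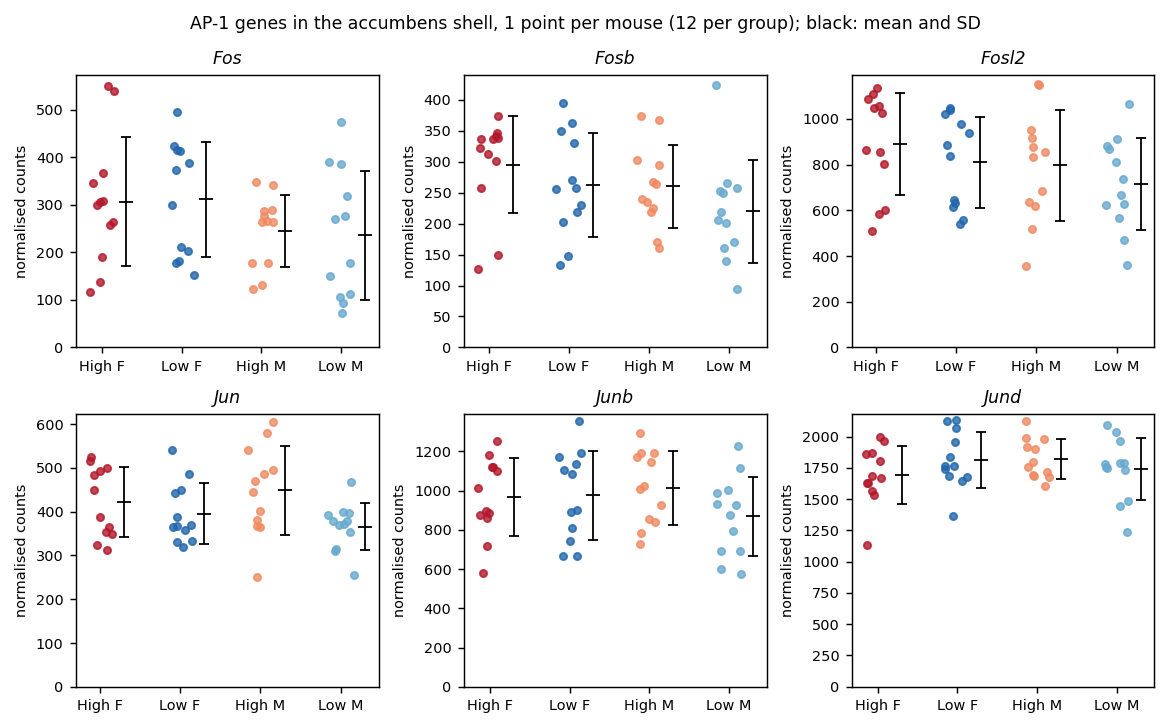
Normalised counts of the 6 AP-1 genes (vertical axes, starting at 0) in each of 48 mice, by line and gender (horizontal axis), with the mean and SD of 12 mice beside the points in black. The 4 groups overlap for every gene, and Fos spreads widest, from 72 to 550.

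The High and Low lines did not differ detectably in any AP-1 gene. None of the 6 was called at an adjusted p under 0.05 (limma with Benjamini-Hochberg adjustment over all tested genes), where 0.28% of all tested genes were called. At an unadjusted p under 0.05 there was 1 of 6, Jun, beside 9.07% of all genes. Point estimates were higher in High mice for 5 of the 6 genes, beside 48.5% of all tested genes. Their median log2 difference was 0.123, against a median of -0.00281 over all tested genes. Fos, Fosb, Fosl2 and Junb move together between mice (given below) and are not separate observations.

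Jun had a lowest value of 251, a median of 447 and a highest value of 606 normalised counts in High mice, against 256, 371.5 and 540 in Low mice. The groups overlapped over nearly their whole range, and 16 of 24 High mice exceeded the median of the Low line while 4 of 24 Low mice exceeded that of the High line. Jun averaged 435.5 ± 90.7 normalised counts in High mice and 380.75 ± 62.1 in Low mice (SD, n = 24 each). The log2 difference was 0.18 ± 0.077 (SE), or 1.13-fold, with an unadjusted limma p of 0.0253, an adjusted p of 0.444 and a permutation p of 0.0322 (two-sided, line labels shuffled within gender). Jun therefore failed the correction over all genes.

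Fosb had a lowest value of 127, a median of 298 and a highest value of 373 normalised counts in High mice, against 94, 239.5 and 424 in Low mice. The lines overlapped widely, and the single highest value belonged to a Low mouse. The log2 difference was 0.22 ± 0.13 (SE), with an unadjusted limma p of 0.0918 and a 95% interval of -0.04 to 0.49. For Fosl2 the lowest, median and highest values were 355, 858.5 and 1154 in High mice, against 360, 774 and 1066 in Low mice, a log2 difference of 0.13 ± 0.12 (SE). Junb had 579, 1010 and 1296 normalised counts in High mice, against 577, 914 and 1353 in Low mice, a log2 difference of 0.11 ± 0.089 (SE). Both genes overlapped between the lines, with 5 High mice above every Low mouse in Fosl2 and none in Junb.

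Fos had 116, 270.5 and 550 normalised counts as lowest, median and highest values in High mice, against 72, 274 and 496 in Low mice. The 4 lowest Fos values of all 48 mice were in Low mice and the 2 highest in High mice, with the medians nearly equal. The log2 difference was 0.08, and its 95% interval ran from -0.29 to 0.46, so a line difference of up to 1.37-fold in Fos would lie within the error. Without the 10 libraries rich in Slc17a7 it was 0.18, with an unadjusted limma p of 0.408. Jund had 1133, 1736 and 2128 in High mice, against 1236, 1767 and 2132 in Low mice, the tightest estimate of the 6. Its log2 difference was -0.01 with a 95% interval of -0.12 to 0.09.

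Within each gender, too, no member was called. Among F mice 0.0261% of all genes were called, and no member had an unadjusted p under 0.05, beside 4.68% of all genes. Among M mice no gene of the table was called (0% of tested genes), while Jun alone had an unadjusted p under 0.05, beside 6.93% of all genes. Jun had a lowest value of 251, a median of 457 and a highest value of 606 in High M mice, against 256, 375.5 and 467 in Low M mice. Its log2 difference among M mice was 0.27 ± 0.11 (SE), with an unadjusted p of 0.0163 and an adjusted limma p of 0.61. Among F mice Jun had 313, 419.5 and 525 in High F mice, against 320, 368.5 and 540 in Low F mice, a log2 difference of 0.08 ± 0.11 (SE).

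The difference between these line effects, F minus M, was tested as an interaction. No gene of the table was called (0% of tested genes), and no member had an unadjusted p under 0.05, beside 2.4% of all genes. The 6 estimates were all negative, with a median of -0.181, where 49.1% of all genes had an estimate above 0. Members that move together between mice are not separate observations. For Jun the estimate was -0.19 with a 95% interval of -0.49 to 0.12, and for Fos it was -0.26 with an interval of -1.01 to 0.48. The estimate of Fosl2, at -0.01, turned to 0.04 without High M replicate 1.

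F and M mice did not differ detectably in the AP-1 genes either. No member was called, beside 0.0782% of all genes, and Fos alone had an unadjusted p under 0.05, beside 4.21% of all genes. Fos had a lowest value of 116, a median of 303 and a highest value of 550 normalised counts in F mice, against 72, 264.5 and 475 in M mice. The genders overlapped, although 3 F mice lay above every M mouse and 4 M mice below every F mouse. Fos averaged 309 ± 125 in F mice and 241 ± 107 in M mice (SD, n = 24 each). The log2 difference, F minus M, was 0.38 ± 0.19 (SE), or 1.31-fold, with an unadjusted p of 0.0436 and an adjusted limma p of 0.982. Fosb had 127, 307 and 394 in F mice, against 94, 237 and 424 in M mice, a log2 difference of 0.21, and Fosl2 had 511, 874 and 1136 in F mice, against 355, 774 and 1154 in M mice, a log2 difference of 0.19. Neither reached an unadjusted p of 0.05. The Jun family estimates lay between -0.02 and 0.05.

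**Figure D2:**
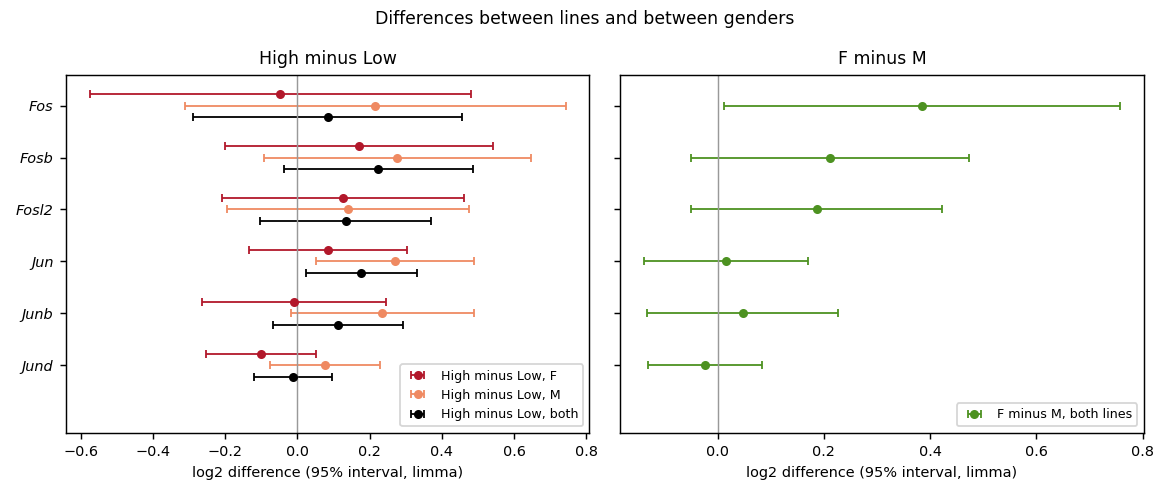
Log2 differences of the 6 genes with 95% intervals from limma (horizontal axes), High minus Low on the left for F, M and both genders, and F minus M on the right. Nearly all intervals include 0; those of Jun for both genders (0.02 to 0.33) and among M mice (0.05 to 0.49) and of Fos for F minus M (0.01 to 0.76) do not, and none of these passed the adjustment over all genes.

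The spread between mice was compared between the lines through absolute deviations from the group median. No member was called, beside 0.0586% of all genes, and none had an unadjusted p under 0.05, beside 3.97% of all genes. Jun had the smallest unadjusted p, 0.0553, which fell under 0.05 in 3 of 10 alternative settings (0.043 without High M replicate 1, adjusted limma p of 1), with an SD of 90.7 normalised counts in High mice and 62.1 in Low mice. The estimate for Fos had the other sign, with an SD of 112 in High mice and 131 in Low mice. By gender, the Fos SD was 75.4 in High M against 136 in Low M mice, but 135 in High F against 121 in Low F mice. These SDs are of normalised counts, whereas the test used log2 values. This test is coarse. On simulated data it called 0 of 100 genes whose SD was 2 times larger and 94 of 100 whose SD was 4 times larger.

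The use of single exons within Fos, Fosb and Fosl2 was compared between High and Low mice with limma's diffSplice. None of their 12 exons was called, beside 0.0569% of 144035 exons, and none had an unadjusted p under 0.05. The last exon of Fosb had a log2 usage difference of -0.19 (unadjusted p of 0.565) and that of Fosl2 a difference of 0.17 (0.524). All Fosb exons except the last had medians of at most 6.5 normalised counts.

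Between mice of the same group, Fos, Fosb, Fosl2 and Junb rose and fell together. Correlations were taken over the 48 mice on log2 values after subtracting the mean of each group, with two-sided permutation tests of 100000 resamples within groups and adjustment over the 15 pairs of members. Of the 15 pairs, 8 had an adjusted p under 0.05. The closest pair crossed the families, Fos with Junb, at a Pearson r of 0.88 and a Spearman rho of 0.84. Junb also followed Fosb (r of 0.80, rho of 0.75) and Fosl2 (r of 0.79, rho of 0.73). The 3 Fos genes followed each other at r of 0.76 in each pair, with rho between 0.77 and 0.80. These 6 pairs had a permutation p of 1e-05, the smallest these resamples can give, and an adjusted p of 2.5e-05.

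The pattern held in every group of 12 mice. Fos with Junb had an r of 0.86 in High F, 0.87 in High M, 0.92 in Low F and 0.90 in Low M mice. Over all 6 pairs and 4 groups, r lay between 0.67 and 0.92. Without the 2 mice farthest from the median of the gene named first, Fos with Junb had an r of 0.89, and the other 5 pairs had r between 0.75 and 0.78.

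Single mice show how the 4 genes moved. High F replicate 11, with the highest Fos (550), had 373 normalised counts of Fosb, 1136 of Fosl2 and 1251 of Junb. Low F replicate 1 had 496 of Fos, 394 of Fosb, 936 of Fosl2 and 1353 of Junb, the highest Junb of all. At the other end, Low M replicate 6 had 113 of Fos, 161 of Fosb, 360 of Fosl2 and 577 of Junb, the lowest Junb of all. It was also the library with the highest cortical Slc17a7 (3886). High F replicate 8, not among the 10 libraries rich in Slc17a7, had 137 of Fos, 127 of Fosb, 583 of Fosl2 and 579 of Junb. Low M replicate 2 broke the pattern in part, with the lowest Fos (72) beside 206 of Fosb, 627 of Fosl2 and 693 of Junb. In 21 of 48 mice all 4 genes lay above their group mean, in 16 all 4 lay below it, and 11 mice were mixed. These counts were chosen after the correlations had been seen and describe them.

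Jun and Jund did not follow this quartet closely. Jun had an r of 0.39 with Junb (rho of 0.40, permutation p of 0.00613, adjusted p of 0.0115), and this pair lost the threshold without the 10 libraries rich in Slc17a7 (r of 0.34, adjusted p of 0.0661). With Fos, Fosb and Fosl2 the r of Jun was 0.25, 0.30 and 0.28, and the adjusted permutation p was 0.0955, 0.0577 and 0.0955. Jund had an r of 0.037 with Fos and 0.061 with Fosl2. The values of Jund with Fosb (0.26) and Junb (0.29) also missed the threshold. The 2 genes followed each other instead, with an r of 0.48 and a rho of 0.53 (permutation p of 0.00029, adjusted p of 0.000621). Within groups the r of Jun with Jund was 0.63 in High F, 0.68 in High M, 0.32 in Low F and 0.42 in Low M mice.

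**Figure D3:**
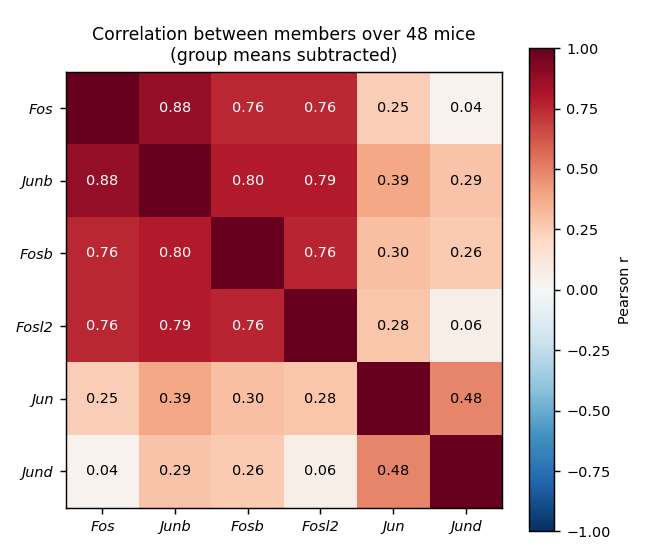
Pearson r between each pair of the 6 genes over 48 mice, on log2 values with group means subtracted; colour runs from -1 (blue) to 1 (red). Fos, Junb, Fosb and Fosl2 form a block at 0.76 to 0.88, and Jun with Jund stands at 0.48.

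**Figure D4:**
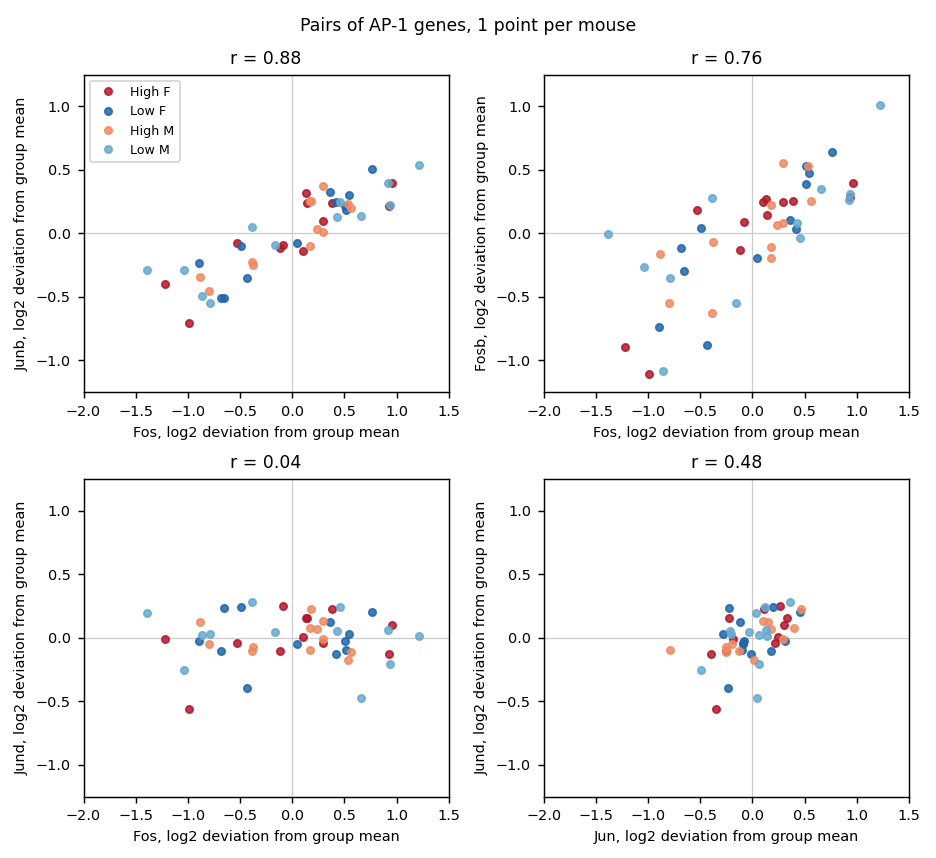
Log2 deviation of each mouse from its group mean for 4 pairs of genes, 1 point per mouse, coloured by group. Fos with Junb (r of 0.88) and Fos with Fosb (0.76) follow a line in all 4 groups, Fos with Jund (0.037) does not, and Jun with Jund (0.48) lies between.

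Against all 15349 other tested genes, the nearest neighbours of Fos, Fosb, Fosl2 and Junb were mostly each other and other activity-induced genes. The gene closest to Junb was Fos, followed by Arc, which codes for a cytoskeleton-associated synaptic protein (r of 0.88), and Dusp1, a phosphatase that switches off MAP kinases (0.86). Closest to Fos were Arc (0.89), Junb (0.88), the antiproliferative gene Btg2 (0.87), the orphan nuclear receptor Nr4a1 (0.86) and Dusp1 (0.81). Closest to Fosb were Nr4a1 (0.86), Nr4a3 (0.83), the zinc finger gene Egr4 (0.81), Junb (0.80) and the salt-inducible kinase Sik1 (0.77). Closest to Fosl2 were Nr4a3 (0.89), Nr4a1 (0.80), Junb (0.79), Tiparp (0.78) and Sik1 (0.77). Genes at r above 0.5 numbered 64 for Fos, 67 for Junb, 95 for Fosb and 88 for Fosl2. At the negative end stood Lcmt2 with Fos (-0.62) and Fosb (-0.64), Armcx5 with Fosl2 (-0.67) and Slc36a4 with Junb (-0.59).

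Jun and Jund had other neighbours. Closest to Jun were Tlnrd1 (0.69), the growth factor gene Hbegf (0.65), the anchoring protein gene Akap9 (0.64), the adenosine receptor gene Adora1 (0.64) and Nus1 (0.63). Tnip2 (-0.66) and the receptor kinase gene Grk3 (-0.63) stood at its negative end. Jund ranked 136 among the neighbours of Jun, and Jun ranked 495 among those of Jund, for which 5% of all genes had an r above 0.44. Closest to Jund was the overlapping Gm11175, at an r of 0.94, whose reads cannot be told apart from those of Jund. After it came Fam171a2 (0.78), the casein kinase gene Csnk1g2 (0.74), the endocytosis gene Epn1 (0.73) and the aldehyde dehydrogenase gene Aldh2 (0.73), while Ufl1 was at the negative end (-0.68). Jund had 429 genes at r above 0.5 and Jun had 97. Among the 6 members only Jund had a relation past the threshold with the share of value in last exons (r of -0.49, rho of -0.49, permutation p of 0.00038, adjusted p of 0.00456 over 12 relations with library measures; r of -0.59 without the 2 farthest mice). With last exon share regressed out, Jun with Jund had an r of 0.445 (adjusted permutation p of 0.00553) and Fosb with Jund an r of 0.19. Beyond this, the part of last exon share in the Jund values was not tested. The overlapping Junos had an r of 0.55 with Jun, and Prdx2 an r of 0.20 with Junb.

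The wider pathway was described with lists of related genes. The lists were written with earlier results of these data known, so their counts and medians describe the co-variation and are not separate support for it. Of 30 other activity-induced genes, 29 had a positive r with Fos, 29 with Junb, 30 with Fosb and 27 with Fosl2. Their median r was 0.46 with Fos, 0.47 with Junb, 0.54 with Fosb and 0.44 with Fosl2, beside medians over all genes between -0.011 and 0.0072. It was lower with Jun (0.28) and lowest with Jund (0.085). The list was not uniform. Arc and Egr4 had the highest mean r with the members, whereas the early genes Ier2 (0.12 with Fos) and Zfp36 (0.097 with Fos) hardly followed the quartet. The kinase gene Plk2 had its highest r with Jun (0.60) and the activity-dependent factor gene Npas4 with Fos (0.60).

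Partners of AP-1 dimers and related basic leucine zipper genes, taken as 1 list, were less close. Their median r lay between -0.011 and 0.12 over 17 tested genes. An exception was Atf3, a stress-induced partner of Jun proteins, at r of 0.75 with Fos, 0.73 with Fosb, 0.71 with Fosl2 and 0.73 with Junb, and 0.18 with Jun. Crem, which codes for cyclic AMP response modulators, followed at 0.55 with Fosl2. Among 27 kinases and phosphatases upstream of AP-1, Dusp1 (0.86 with Junb) and Dusp6 (0.51 with Fosb) had the highest mean r over the 6 members. Among 20 regulators of Fos and Jun promoters, Srf, the serum response factor, had an r of 0.69 with Fosb and 0.54 with Fos, and Camk2b, next by mean r, an r of 0.49 with Jund. For 18 genes described as AP-1 or delta-FosB targets the median r lay between -0.027 and 0.055 over the 6 members. The highest mean r in that list belonged to Pdyn, the dynorphin precursor, with 0.39 for Fosl2 and 0.35 for Fosb, followed by Bcl2l11.

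**Figure D5:**
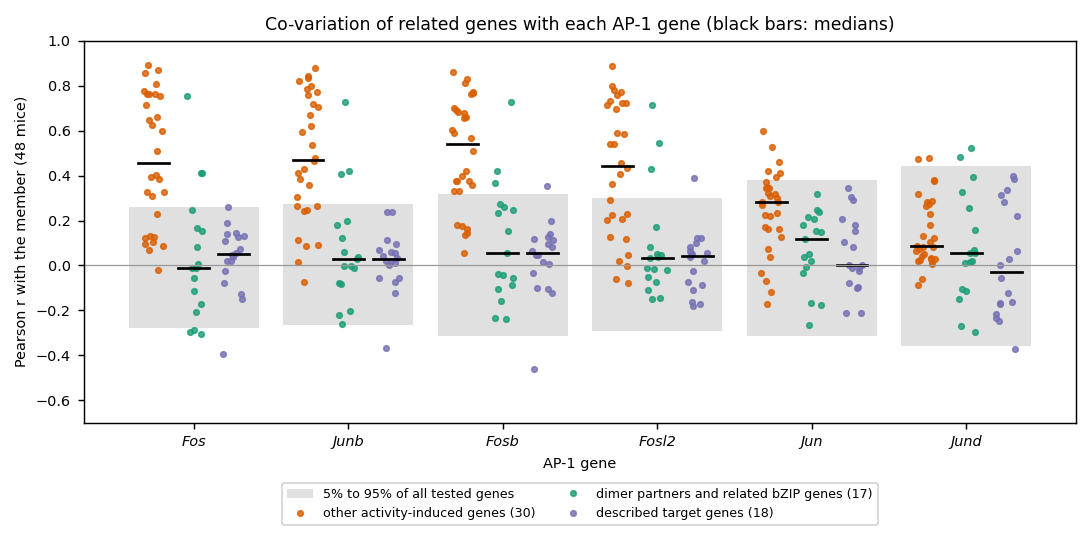
Pearson r over 48 mice between each AP-1 gene and the genes of 3 lists (points), with list medians in black; the grey band holds the middle 90% of all tested genes. Other activity-induced genes lie mostly above the band for Fos, Junb, Fosb and Fosl2 and mostly inside it for Jun and Jund, while described targets lie mostly inside it for every member.

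None of these related genes was called between the lines. The 17 dimer partners and related basic leucine zipper genes held 2 with an unadjusted limma p under 0.05. Both had higher estimates in High mice: Atf1 (log2 difference 0.16, unadjusted p of 0.00247) and Creb1 (0.10, 0.0464). None of the 17 passed the adjustment. Of the 27 kinases and phosphatases none passed it either, and the smallest unadjusted p, 0.0137, belonged to the ribosomal S6 kinase gene Rps6ka1 (-0.19); Mapk9, the gene of a Jun kinase, came next at 0.06. Of the 20 promoter regulators none was called, and Creb1, which is in both lists, was followed by Crebbp (-0.18). Among activity-induced genes 0 of 30 were called, and 23 had higher estimates in High mice, beside 48.5% of all genes. The smallest unadjusted limma p values in that list belonged to Trib1 (0.18, 0.0445) and Nr4a3 (0.36, 0.0581). The list medians, between 0.0014 and 0.049 for these 4 lists, stood beside -0.00281 for all genes. The 18 described targets had a median of -0.0397 and none was called; the unadjusted p was under 0.05 for 3 of them, the neuropeptide genes Npy (-0.28), Nts (0.41) and Pdyn (0.13). Between F and M mice no gene of the 5 lists was called, and 27 of the 30 activity-induced genes had higher estimates in F mice, beside 47.7% of all genes. Their median was 0.0741, beside -0.0036 over all genes; many of these genes move together between mice and are not separate observations.

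Markers of 10 cell types were set beside the members, giving 60 relations, of which 3 had an adjusted permutation p under 0.05. All 3 were with blood markers, the globin genes and Alas2 of red cells: Fos at r of 0.55 (rho of 0.50, adjusted p of 0.0087), Fosl2 at 0.49 (rho of 0.47, 0.0087) and Junb at 0.49 (rho of 0.46, 0.0126). Without the 2 farthest mice these were 0.51, 0.48 and 0.47. Fosb had an r of 0.39 with them (adjusted p of 0.1), Jun 0.18 and Jund 0.013. All 5 blood markers in the table had a positive r with Fos, Fosb, Fosl2 and Junb. Their summed level ran from 223 to 1743 normalised counts in High mice and from 245 to 1305 in Low mice, and Hba-a2 was at 0 in some libraries. With the blood markers regressed out, the 6 pairs among Fos, Fosb, Fosl2 and Junb had r between 0.67 and 0.84. The part of blood in the values of these genes was not tested.

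The other marker lists gave no relation past the threshold. Medium spiny neuron markers came nearest, with Jun at r of 0.43 (adjusted permutation p of 0.0651) and a summed level of 115477 to 168233 in High mice and 115025 to 175570 in Low mice. Between the lines, 1 of 10 interneuron markers was called, Sst, which was lower in High mice (1772 ± 388 against 2360 ± 542 normalised counts in Low mice, SD, n = 24 each; adjusted limma p of 0.0233). All 10 oligodendrocyte markers had lower estimates in High mice, where 48.5% of all genes had higher ones, and none was called. Of these 10, 8 had an unadjusted limma p under 0.05, beside 9.07% of all genes, and their median log2 difference was -0.224. Their summed level ran from 8903 to 24143 in High mice and from 13136 to 24637 in Low mice. All 8 astrocyte markers had higher estimates in High mice (median 0.105), 1 with an unadjusted limma p under 0.05 and none called. Markers of 1 cell type may move together and are not separate observations. The part of these cell types in the line estimates of the AP-1 genes was not tested.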

How the data were processed

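RNA-seq values of 48 libraries, 12 in each of 4 groups of line and gender, were used. Both deposited tables hold a score, namely gene or exon counts after normalisation by the authors, rounded to whole numbers, per the file headers. As these are not raw reads, no count model was fitted and no counting interval was given. Per the submitters' processing notes mm9 was the genome build, and edgeR 3.4.2, R 3.0.2, STAR 2.4.0, CASAVA and FastQC were named without roles. The counter, strand setting and normalisation method are not given in the sources used here.

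Values were tested with limma 3.58.1 (R 4.3.3) (moderated statistics, trend option) on log2(value + 0.5 ppm), where 1 ppm of the mean library total is 14.06 normalised counts. Fold changes are on this scale and understate changes of low genes. The filter asked for 1 ppm in 12 libraries or more. A single fit held all 48 libraries and the 4 group means, and calls were made at an adjusted p under 0.05 (Benjamini-Hochberg) over all 15350 genes. Exons were tested with diffSplice. Symbols matched 32897 of 37620 genes (GENCODE M21, GRCm38); no coordinates were converted between builds. Correlations used numpy 2.4.6 and scipy 1.17.1, and figures matplotlib 3.10.9. Named genes were the 6 members, for each the tested genes with the highest and lowest r (up to 5 and 3), and from each list the called genes, or otherwise the smallest p values, and the 2 highest mean r; the others named (Ier2, Zfp36, Plk2, Npas4 and Pdyn among the line results) were chosen after their values were seen. The members and lists were chosen with earlier results of these data known. On simulated data of the line comparison, 62.7% of log2 changes of 0.3, 79.1% of 0.5 and 98.5% of 1 were recovered over 15350 genes. The changed genes were drawn from all tested genes, whose median SD within a group was 0.232. Fos (0.67), Fosb (0.47), Fosl2 (0.43), Junb (0.32) and Jun (0.27) were noisier, so these shares do not hold for them. Changes were set in 67 genes at 0.3, 67 at 0.5 and 66 at 1, whereas the data had 43 line calls. More changed genes ease the adjusted threshold, so the shares may be too high for these data. Replicate numbers are order of listing and only names. Whether mice of a group were related is not given, so p-values reflect the variation among the sampled mice alone.

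Alternatives were other pseudocounts, no filter, median-ratio and quantile scaling, array weights, a cortical marker or sample number as covariate, leaving out High M replicate 1, and, added after seeing the data, leaving out libraries rich in Slc17a7 and regressing out sample number, last exon share or blood markers.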

Additional observations from a re-analysis of the deposited data

How the results depend on the processing

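No paired analysis was possible because the labels give no replicate numbers that pair mice across groups. The 70 recomputed counts, of members, pairs, marker relations and exons passing a threshold, all stayed within a set ratio of the main count. Single pairs did cross the threshold, as given below. Members called remained at 0 in every line, gender, interaction, spread and exon setting that was run, and the number of correlated pairs lay between 7 and 11. Jun kept an unadjusted p between 0.00665 and 0.0407 for the line difference over 10 settings, with log2 differences of 0.17 to 0.22 and adjusted limma p between 0.187 and 0.623. Jun's difference in spread had an unadjusted p between 0.043 and 0.0697, under 0.05 in 3 of 10 settings; Junb among M mice and Fosb in F minus M were under 0.05 in 1 of 10 each. For Fos, F minus M had an unadjusted p between 0.0204 and 0.054, under 0.05 in 9 of 10 settings. The 6 close pairs stayed at r between 0.67 and 0.89.

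Among recomputed values of single genes and pairs, 519 kept their direction and their side of the threshold. Of the others, 5 changed sign, 3 passed the threshold and 1 lost it. The sign changed for Fosl2 in the interaction without High M replicate 1 (0.041) and without the 10 libraries rich in Slc17a7 (0.083). Without those 10 libraries it also changed for Jund between the lines (0.019), Junb among F mice (0.0018) and Jun in F minus M (-0.049). All these estimates were close to 0 and had limma p-values far above 0.05; the cause was not tested. Without subtracting group means, Fosb with Jun (r of 0.36), Fosl2 with Jun (0.31) and Junb with Jund (0.30) passed the threshold, and Jun with Junb lost it without the libraries rich in Slc17a7 (0.34). Over all genes, line calls numbered 43, against 80 with array weights and 14 without those 10 libraries; line calls among F mice were 4, against 7 with array weights, 2 with no filter and 0 without those libraries. Calls of spread were 9, against 15 with array weights or no filter and 4 without those libraries. Exon calls were 82, against 33 with the larger pseudocount and 17 with the stricter filter. A stricter exon filter of 1 ppm left 6 of 12 member exons and none of Fosb. The depth behind each value is unknown, and with 24 mice a line the interval for Fos spans more than the differences estimated here.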
